A study of Mus musculus with 8 samples.

Results

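The genes described here make, store and carry retinoids in embryonic mouse skin: Rdh10, Sdr16c5, Sdr16c6, Dhrs9, Aldh1a1, Aldh1a2, Aldh1a3, Lrat, Rbp4 and Crabp1. They were chosen by symbol, and all 10 were found among 21882 gene symbols, as 11 of 27641 RefSeq transcripts. RNA came from C57BL/6 embryos. At embryonic day 16.5 (E16.5), 2 libraries of whole Cyp26b1-/- skin were compared with 2 of wild-type skin. The later age was embryonic day 18.5 (E18.5), when dermis of En1cre;Cyp26b1f/- embryos was set against dermis of Cyp26b1f/+ embryos, and epidermis likewise, with 1 library in each of these groups. The En1cre;Cyp26b1f/- embryos have Cre in cells that have expressed Engrailed 1, a group that includes trunk dermis but not all skin cells. They carry a null allele in every other cell as well, where Cyp26b1f/+ controls keep both alleles, so loss in the Cre lineage and the missing allele elsewhere cannot be told apart. The comparisons ask how skin transcripts differ where Cyp26b1, an enzyme that degrades retinoic acid, is removed.

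Retinoic acid is made from vitamin A in consecutive oxidations. Retinol dehydrogenases turn retinol into retinaldehyde, and retinaldehyde dehydrogenases turn that into retinoic acid, which binds nuclear receptors and changes transcription. Surplus retinol is stored as retinyl esters, a plasma protein carries retinol between organs, and small cytoplasmic proteins hold retinol or retinoic acid inside cells. In skin the supply of retinoic acid is known to influence keratinocyte differentiation and hair follicles.

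Levels are in FPKM, a count of sequenced fragments divided by transcript length and library size, summed over the transcripts of a symbol. Each E16.5 value is the authors' pooled estimate for a group, so the spread between libraries is unknown there, and the E18.5 comparisons have no replicate. Labels do not say whether the E16.5 libraries came from separate embryos. Read depth is unknown, since FPKM does not carry it. A relative log2 fold is log2((mutant FPKM + 1)/(control FPKM + 1)) minus the same quantity for the median gene of that comparison, which was 0.43 in skin, 0.12 in dermis and -0.18 in epidermis. The added 1 understates the change of low genes. At E16.5 a gene rose or fell where the authors' log2 fold, less the median of 0.474 over tested transcripts, passed a test on the standard error (SE) of Cuffdiff at a Benjamini-Hochberg adjusted p of 0.05 over 19262 transcripts. That SE is a model's estimate and not a spread between animals. At E18.5 no p was computed, and genes of at least 1 FPKM in either group were counted where they lay 2-fold or more from the median gene.

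The targeted gene and the tissue labels were checked first. Cyp26b1, summed over its transcripts, was listed at 58.16 FPKM in Cyp26b1-/- skin and 34.95 FPKM in wild-type skin, so whole-transcript levels do not show the deletion, and every direction given here rests on the labels. Of its transcripts, NM_001177713 was at 14.38 FPKM in Cyp26b1-/- skin and 19.45 FPKM in wild-type skin, and NM_175475 at 43.78 FPKM in Cyp26b1-/- skin and 15.50 FPKM in wild-type skin. It was also not lower in En1cre;Cyp26b1f/- dermis (101.73 FPKM, against 54.16 FPKM in control dermis) or epidermis (13.68 FPKM, against 4.97 FPKM in control epidermis). Both dermis libraries held keratinocyte transcripts: the basal keratin Krt5 was at 1806.04 FPKM in En1cre;Cyp26b1f/- dermis and 6264.94 FPKM in control dermis, against 2634.28 FPKM in control epidermis. The fibroblast collagen gene Col6a1 separated the tissues, with 568.49 FPKM in control dermis and 19.72 FPKM in control epidermis. Of the listed markers of lens, 19 of 22 were higher in Cyp26b1-/- skin, where they summed to 3050 FPKM, against 71.9 FPKM in wild-type skin.

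In E16.5 skin, Aldh1a1, Sdr16c6 and Crabp1 rose in Cyp26b1-/- embryos, and Sdr16c5 and Lrat fell. Rdh10, Dhrs9, Aldh1a2, Aldh1a3 and Rbp4 did not pass the test. Thus 3 of the 10 tested genes were called higher, where 8.18% of all 16303 tested genes were, and 2 were called lower, where 9.97% of all tested genes were. Since the genes were chosen with results known, nothing particular to them is read from these counts. The median relative log2 fold of the 10 genes was -0.13, and their folds ran between -1.10 and 0.83. In whole skin, fewer cells of a type and less RNA per cell cannot be told apart.

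**Figure D1:**
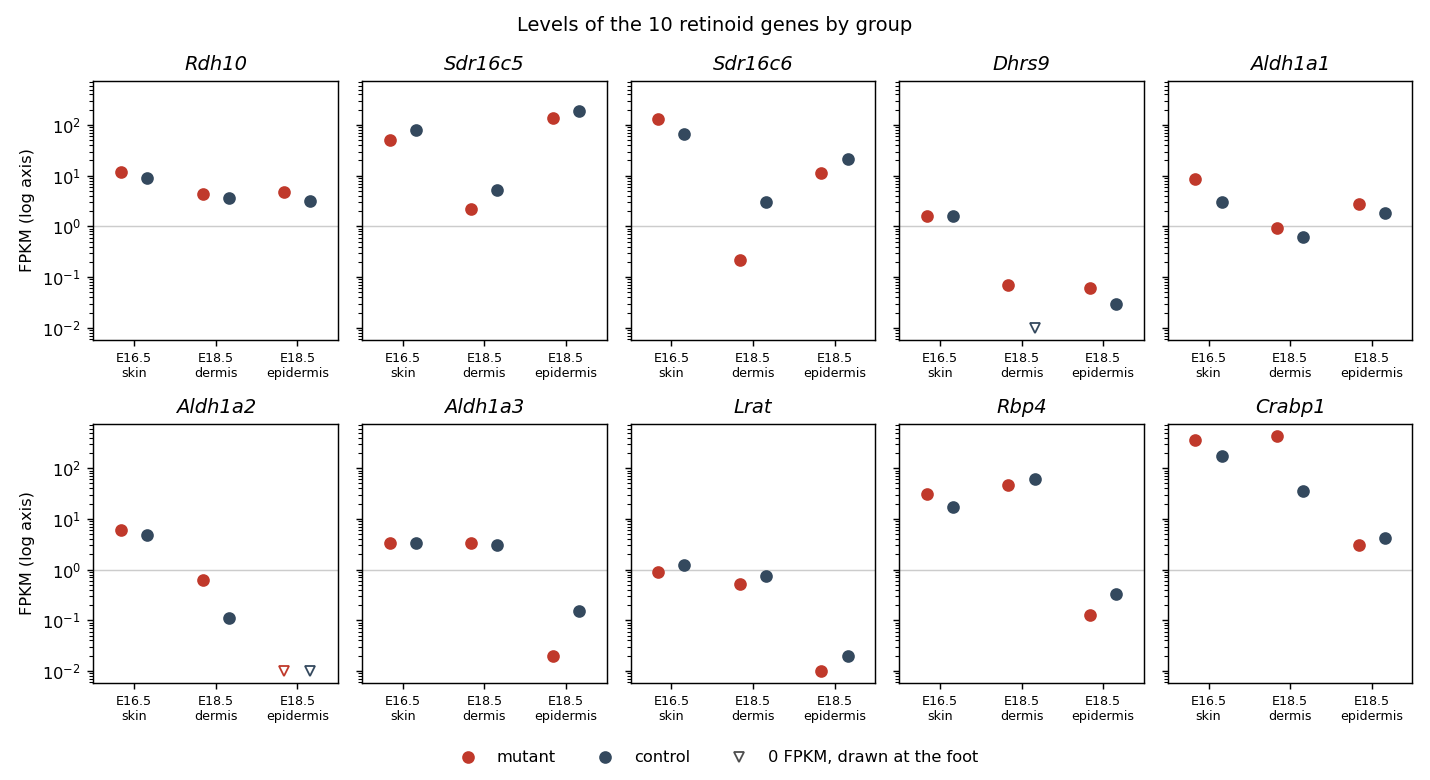
FPKM of each of the 10 genes on a log axis in mutant and control samples of E16.5 skin, E18.5 dermis and E18.5 epidermis; E16.5 points each pool 2 libraries, E18.5 points are 1 library, and open triangles stand for 0 FPKM. Crabp1 is the most abundant of the 10 in skin and in mutant dermis (354.7 and 432.33 FPKM in the mutants), and Sdr16c5 in epidermis (135.13 FPKM in the mutant and 189.69 FPKM in the control).

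Among the retinol dehydrogenases, the neighbouring genes Sdr16c5 and Sdr16c6 moved in opposite directions at E16.5. Both encode short-chain dehydrogenases that oxidise retinol to retinaldehyde. They lie side by side on the minus strand of chromosome 4 (mm9), Sdr16c5 from 3923089 to 3946810 and Sdr16c6 from 3983813 to 4004661. Their transcripts were 71.8% identical when aligned and shared no stretch of 50 bases with each other or with another gene, so reads of the pair can be kept apart. Sdr16c5 fell to 50.66 FPKM in Cyp26b1-/- skin, against 81.04 FPKM in wild-type skin. Its recentred log2 fold was -1.15 (SE 0.15, 95% interval -1.44 to -0.86). Sdr16c6 rose to 134.12 FPKM in Cyp26b1-/- skin, against 67.77 FPKM in wild-type skin. Its recentred log2 fold was 0.51 (SE 0.14, 95% interval 0.24 to 0.79). Sdr16c6 was thus the more abundant of the pair in Cyp26b1-/- skin, with 2.65 times the FPKM of Sdr16c5, and the less abundant in wild-type skin, with 0.836 times. Markers of the outer epidermis and the hair fell in the same libraries. Of spinous and granular keratinocyte markers, 7 of 11 tested were called lower and 0 higher, with a median relative log2 fold of -0.89, and the list summed to 13200 FPKM in Cyp26b1-/- skin and 11800 FPKM in wild-type skin. Of hair shaft and inner root sheath markers, 13 of 15 were called lower and 1 higher, with a list sum of 100 FPKM in Cyp26b1-/- skin and 194 FPKM in wild-type skin. Of basal keratinocyte markers, 2 of 9 were called lower and 0 higher. The part of these cells in the values of Sdr16c5 and Sdr16c6 was not tested. Of the other neighbours of the pair within 250 kb, 5 were tested and 0 were called in either direction by the recentred test. Over all tested genes 8.18% were called higher and 9.97% lower, so nothing is read from so few neighbours. Around Crabp1, 12 neighbours were tested, of which 2 were called higher and 3 lower.

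Rdh10, the retinol dehydrogenase on which most retinoic acid synthesis in the mouse embryo depends, is on chromosome 1 from 16095963 to 16122631 on the plus strand. It was at 11.86 FPKM in Cyp26b1-/- skin and 9.12 FPKM in wild-type skin, and its recentred log2 fold of -0.10 (SE 0.18, 95% interval -0.45 to 0.26) did not pass the test. Dhrs9, which also acts on retinol and on steroids (chromosome 2, 69218519 to 69241143, plus strand), was at 1.61 FPKM in Cyp26b1-/- skin and 1.59 FPKM in wild-type skin. Its recentred log2 fold was -0.45 (SE 0.35) and did not pass the test.

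Of the retinaldehyde dehydrogenases, which carry out the last step to retinoic acid, Aldh1a1 alone passed the test at E16.5. Aldh1a1 lies on the plus strand of chromosome 19 from 20676472 to 20717952. It rose to 8.68 FPKM in Cyp26b1-/- skin, against 3.04 FPKM in wild-type skin. The recentred log2 fold was 1.04 (SE 0.24, 95% interval 0.57 to 1.51). Its close relative Aldh1a7, with a transcript 89.8% identical, was higher as well, at 44.56 FPKM in Cyp26b1-/- skin and 20.80 FPKM in wild-type skin. Of the 50-base windows of Aldh1a1, 7.53% occur in Aldh1a7 too, so some reads of either could have been counted for the other. Aldh1a1 had 0.195 times the FPKM of Aldh1a7 in Cyp26b1-/- skin and 0.146 times in wild-type skin. Such reads would therefore weigh more in Aldh1a1 than in Aldh1a7, and their part in the Aldh1a1 value was not tested. Aldh1a1 was 1.44 times as abundant as Aldh1a2 in Cyp26b1-/- skin and 0.623 times as abundant in wild-type skin. Whether Aldh1a1 moved differently from Aldh1a2 or Aldh1a3 was not tested.

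Aldh1a2, the main source of retinoic acid in early mouse mesoderm (chromosome 9, 71063596 to 71144050, plus strand), was at 6.01 FPKM in Cyp26b1-/- skin and 4.88 FPKM in wild-type skin. Its recentred log2 fold was -0.17 (SE 0.22, 95% interval -0.60 to 0.26). Aldh1a3, the third enzyme of the family (chromosome 7, 73535779 to 73572363, minus strand), was at 3.41 FPKM in Cyp26b1-/- skin and 3.37 FPKM in wild-type skin. Its recentred log2 fold was -0.45 (SE 0.24, 95% interval -0.92 to 0.01). Neither passed the test, and the intervals do not show that these genes were level. Aldh1a1 and Aldh1a3 are known to be expressed in the developing mouse eye, and eye markers moved in the same libraries. Besides the lens genes, 11 of 16 tested markers of retina and pigment epithelium were higher and 2 lower in Cyp26b1-/- skin, and the list summed to 52.5 FPKM, against 23.2 FPKM in wild-type skin. The retinal transcription factor gene Rax was at 4.82 FPKM in Cyp26b1-/- skin and 0.04 FPKM in wild-type skin. The part of eye tissue in the Aldh1a1 result was not tested.

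Lrat and Rbp4 stand for storage and transport. Lrat, the acyltransferase that turns retinol into retinyl esters (chromosome 3, 82696504 to 82707896, minus strand), was low: 0.91 FPKM in Cyp26b1-/- skin and 1.21 FPKM in wild-type skin. It fell relative to the median transcript, with a recentred log2 fold of -0.89 (SE 0.29). This call rests on the recentring: in the authors' deposited table the log2 fold was -0.41 with q = 0.221. Rbp4, the plasma carrier of retinol (chromosome 19, 38191110 to 38199811, minus strand), was at 31.67 FPKM in Cyp26b1-/- skin and 17.12 FPKM in wild-type skin. For its main transcript the recentred log2 fold was 0.43 (SE 0.19, 95% interval 0.05 to 0.81) and did not pass the test after adjustment, whereas the authors' deposited table gave a log2 fold of 0.90 with q listed as 0. The liver is the main source of Rbp4 in the body. Of 14 listed liver markers, 8 were tested, of which 2 were called higher and 1 lower, and the list summed to 11.1 FPKM in Cyp26b1-/- skin and 5.16 FPKM in wild-type skin. The markers of highest level were Serpina1b (5.85 FPKM in Cyp26b1-/- skin and 1.78 FPKM in wild-type skin) and Serpina1a (2.26 FPKM in Cyp26b1-/- skin and 0.94 FPKM in wild-type skin), while Alb was at 0.63 FPKM in Cyp26b1-/- skin and 1.00 FPKM in wild-type skin. Their part in the Rbp4 value was not tested. By the authors' deposited q, 4 of the 10 genes were higher, where 54.6% of all tested genes were, and 1 was lower, where 3.46% were.

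Crabp1, a cytoplasmic protein that binds retinoic acid, was the most abundant of the 10 genes in E16.5 skin. It lies on the plus strand of chromosome 9 from 54612615 to 54620916. It rose to 354.7 FPKM in Cyp26b1-/- skin, against 170.93 FPKM in wild-type skin, with a recentred log2 fold of 0.58 (SE 0.14, 95% interval 0.31 to 0.85). By level it ranked 331st in Cyp26b1-/- skin and 521st in wild-type skin among 21417 symbols. Among dermal fibroblast markers, 0 of 11 tested were called higher and 3 were called lower by the recentred test. Their list summed to 4980 FPKM in Cyp26b1-/- skin and 4460 FPKM in wild-type skin. The ratio of Crabp1 to Col6a1 was 0.50 in Cyp26b1-/- skin and 0.288 in wild-type skin. To the proteoglycan gene Dcn it was 0.386 in Cyp26b1-/- skin and 0.256 in wild-type skin. The part of cell makeup in the Crabp1 value was not tested.

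**Figure D2:**
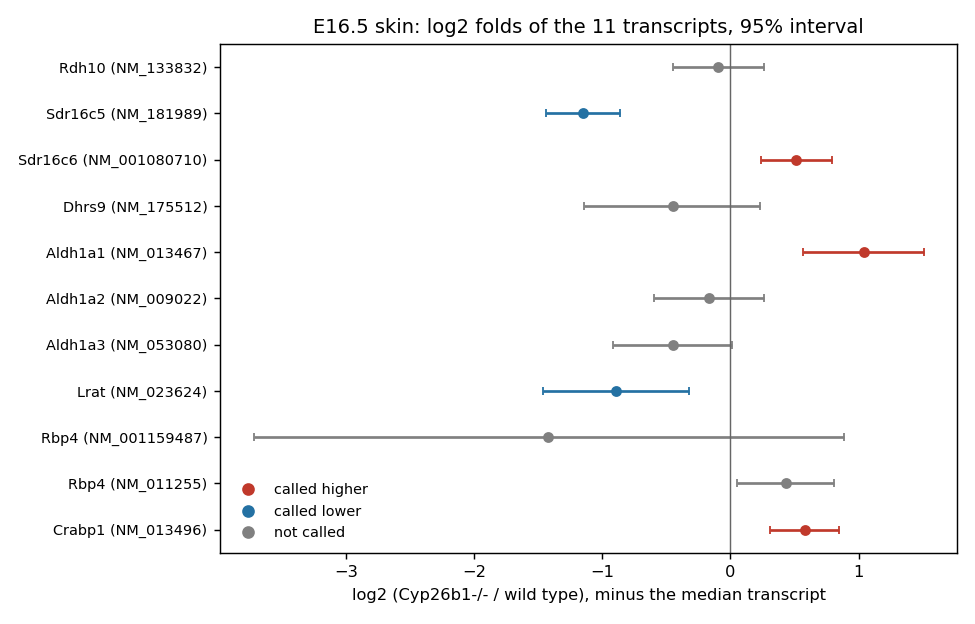
Recentred log2 fold (Cyp26b1-/- over wild-type skin, E16.5) of each of the 11 transcripts, with the 95% interval from the SE that Cuffdiff's statistic implies and the median transcript at 0. Aldh1a1 (1.04), Crabp1 (0.58) and Sdr16c6 (0.51) lie above 0, and Sdr16c5 (-1.15) and Lrat (-0.89) lie below it.

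The sequences before the starts of the 3 genes that rose at E16.5 are shown because these members moved together in Cyp26b1-/- skin and retinoic acid receptors act at DNA. Each is the 250 bases before a RefSeq start (promoter table of GRCm38.p6), read 5′ to 3′ on the gene's strand and placed in mm9 by an exact match. They are Crabp1 at chr9:54612305-54612554 on the plus strand, Sdr16c6 at chr4:4004662-4004911 on the minus strand, and Aldh1a1 at chr19:20676208-20676457 on the plus strand. Capitals mark matches on either strand to the retinoid receptor half-site (the letters AGGTCA or the variants AGTTCA and also GGGTCA and also GGTTCA), to TATAAA, to CCAAT or to the GC box GGGCGG.
Crabp1: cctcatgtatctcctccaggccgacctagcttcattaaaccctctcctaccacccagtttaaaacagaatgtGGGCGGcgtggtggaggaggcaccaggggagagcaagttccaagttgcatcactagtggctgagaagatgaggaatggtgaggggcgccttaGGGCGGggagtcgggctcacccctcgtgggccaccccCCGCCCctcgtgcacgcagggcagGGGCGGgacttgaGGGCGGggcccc
Sdr16c6: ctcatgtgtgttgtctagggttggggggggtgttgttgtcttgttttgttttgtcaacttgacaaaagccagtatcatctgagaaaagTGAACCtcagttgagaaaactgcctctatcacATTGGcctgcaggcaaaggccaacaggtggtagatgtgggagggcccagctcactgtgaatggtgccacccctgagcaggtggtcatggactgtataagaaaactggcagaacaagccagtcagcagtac
Aldh1a1: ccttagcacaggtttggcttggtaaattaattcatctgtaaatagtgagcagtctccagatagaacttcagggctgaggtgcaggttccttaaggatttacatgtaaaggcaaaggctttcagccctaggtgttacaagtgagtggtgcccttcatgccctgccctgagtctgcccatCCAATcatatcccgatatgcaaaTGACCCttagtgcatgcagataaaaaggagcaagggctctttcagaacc
The Crabp1 window held 5 GC boxes and 0 half-sites, and its RefSeq start lies 60 bases before the deposited locus. The Sdr16c6 window held 1 half-site (GGTTCA on the opposite strand, 162 to 157 bases before the start) and 1 CCAAT. The Aldh1a1 window held 1 half-site (GGGTCA on the opposite strand, 49 to 44 bases before the start) and 1 CCAAT. This window belongs to the RefSeq start 14 bases before the deposited locus. Another RefSeq start of Aldh1a1 lies 109399 bases before that locus, and its window (chr19:20566823-20567072, not printed) held 0 half-sites and 0 CCAAT. Of 32851 mouse promoters of this length, 38.6% held a half-site, 33.8% a CCAAT, 32.7% a GC box and 12.4% a TATAAA. Half-sites were not limited to the genes that rose. Dhrs9 and Rbp4, which did not pass the test, each had a window (not printed) with 1 half-site. The other Rbp4 window and those of Lrat and Aldh1a2 held 0. A direct repeat of the half-site spaced by 1, 2 or 5 bases was in 0.426% of all promoters and in none of the 9 windows found for 7 of the 10 genes. These matches are letters in a window and say nothing of binding.

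In E18.5 dermis, Crabp1 was the 1 gene of the 10 past 2-fold higher. It was at 432.33 FPKM in the En1cre;Cyp26b1f/- library and 34.95 FPKM in the control library. Relative to the median gene it was 11.1-fold higher, a relative log2 fold of 3.47, the 88th highest of 13398 genes. It ranked 197th by level in En1cre;Cyp26b1f/- dermis and 2655th in control dermis, among 21694 symbols. Sdr16c5 and Sdr16c6 were both lower. Sdr16c5 was at 2.22 FPKM in En1cre;Cyp26b1f/- dermis and 5.27 FPKM in control dermis (relative log2 fold -1.08). Sdr16c6 was at 0.22 FPKM in En1cre;Cyp26b1f/- dermis and 2.98 FPKM in control dermis (relative log2 fold -1.83). The size of this last difference rests on the added 1: with 0.1 added instead, the relative log2 fold was -3.41 for Sdr16c6 and 3.48 for Crabp1.

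Only 6 of the 10 genes reached 1 FPKM in either dermis library, and a low gene could enter only through the library where it was higher. Of these 6, 1 was past 2-fold higher, where 14.0% of all 13398 genes were, and 2 were past 2-fold lower, where 13.9% were. The 3 others were closer to the median gene. Rdh10 was at 4.34 FPKM in En1cre;Cyp26b1f/- dermis and 3.58 FPKM in control dermis (relative log2 fold 0.10). Aldh1a3 was at 3.28 FPKM in En1cre;Cyp26b1f/- dermis and 3.05 FPKM in control dermis (-0.04), and Rbp4 at 46.94 FPKM in En1cre;Cyp26b1f/- dermis and 61.51 FPKM in control dermis (-0.51). Under 1 FPKM in both libraries were Aldh1a1 (0.93 FPKM in En1cre;Cyp26b1f/- dermis and 0.61 FPKM in control dermis), Aldh1a2 (0.63 FPKM in En1cre;Cyp26b1f/- dermis and 0.11 FPKM in control dermis) and Lrat (0.51 FPKM in En1cre;Cyp26b1f/- dermis and 0.75 FPKM in control dermis). Dhrs9 was at 0.07 FPKM in En1cre;Cyp26b1f/- dermis and listed at 0 in control dermis.

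The makeup of the dermis libraries moved with these values. Fibroblast markers had a median relative log2 fold of 0.93 (4 of 11 past 2-fold higher), and muscle (1.60, 9 of 13), endothelial (1.11, 6 of 10) and immune markers (1.40, 7 of 12) were higher too. Markers of basal keratinocytes (-1.35, 8 of 10 past 2-fold lower), of spinous and granular keratinocytes (-1.79, 10 of 13) and of hair shaft and inner root sheath (-4.27, 14 of 14) were lower. The summed FPKM of the fibroblast list was 6470 in En1cre;Cyp26b1f/- dermis and 4170 in control dermis, over the 11 listed genes without a failed estimate. That of the basal keratinocyte list was 3840 in En1cre;Cyp26b1f/- dermis and 12500 in control dermis. Set against the fibroblast list instead of the median gene, the log2 fold of Crabp1 was 2.54 and that of Rbp4 was -1.44, past 2-fold lower. The 11 genes of that list were spread widely, with relative log2 folds from -0.43 to 2.94, so a single fibroblast gene gives another ratio. Per FPKM of Col6a1, Crabp1 was at 0.366 in En1cre;Cyp26b1f/- dermis and 0.0615 in control dermis, and per FPKM of the proteoglycan gene Dcn at 1.21 in En1cre;Cyp26b1f/- dermis and 0.649 in control dermis. Set against the keratinocyte lists, the log2 fold of Sdr16c5 was 0.43 and that of Sdr16c6 -0.32, so neither was past 2-fold lower and the sign of Sdr16c5 turned, while Rbp4 was at 1.01. Which part the makeup had in these differences was not tested beyond these values.

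**Figure D3:**
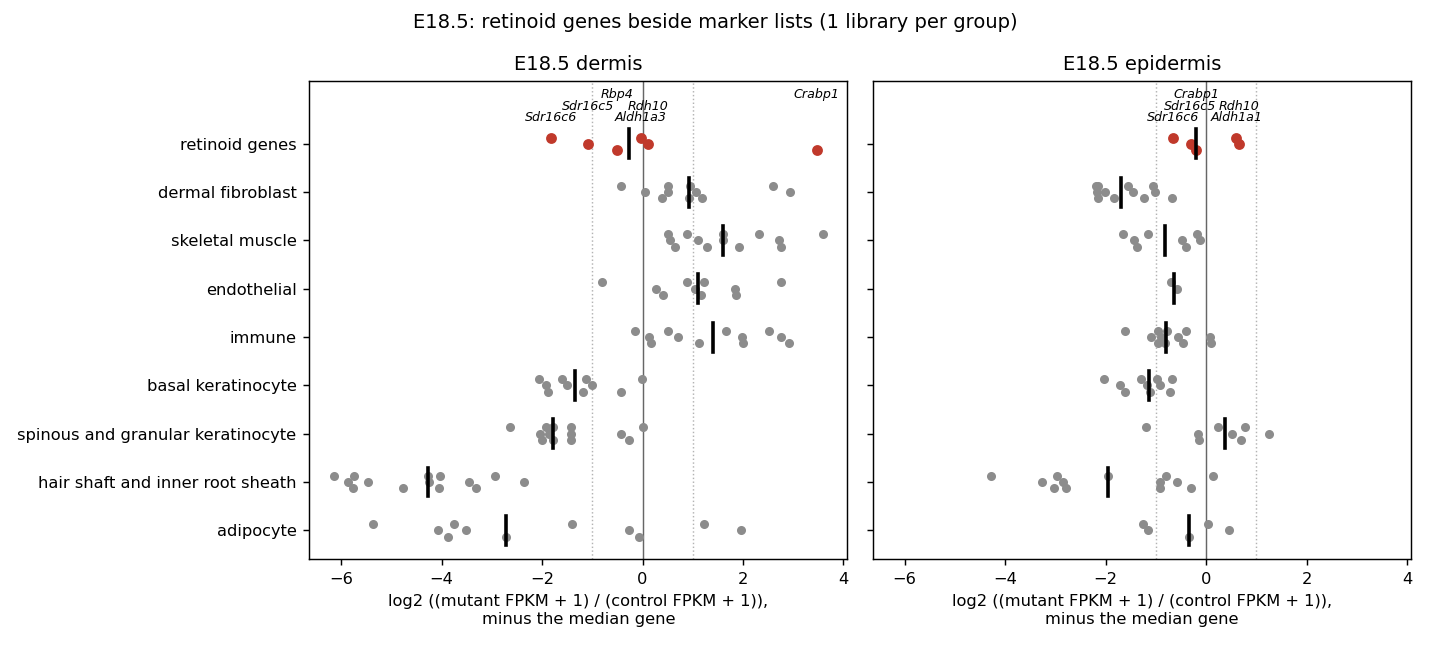
Relative log2 fold (En1cre;Cyp26b1f/- over control) in E18.5 dermis and epidermis of the retinoid genes (red) and of 8 marker lists (grey), for genes of at least 1 FPKM; black bars are medians and dotted lines mark 2-fold. In dermis Crabp1 (3.47) lies to the right with the fibroblast, muscle, endothelial and immune lists, Sdr16c5 (-1.08) and Sdr16c6 (-1.83) lie left of the 2-fold line with the keratinocyte lists, and in epidermis the 5 retinoid genes lie within 2-fold of the median gene.

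In E18.5 epidermis, 0 of the 5 genes that reached 1 FPKM were past 2-fold, where 3.49% of all 11362 genes were higher and 4.86% lower. Sdr16c5, the most abundant, was at 135.13 FPKM in En1cre;Cyp26b1f/- epidermis and 189.69 FPKM in control epidermis (relative log2 fold -0.31). Sdr16c6 was at 11.41 FPKM in En1cre;Cyp26b1f/- epidermis and 21.25 FPKM in control epidermis (-0.66). Rdh10 was at 4.71 FPKM in En1cre;Cyp26b1f/- epidermis and 3.11 FPKM in control epidermis (0.65), and Aldh1a1 at 2.79 FPKM in En1cre;Cyp26b1f/- epidermis and 1.83 FPKM in control epidermis (0.60). Crabp1 was at 3.05 FPKM in En1cre;Cyp26b1f/- epidermis and 4.25 FPKM in control epidermis (-0.20). The other 5 genes were at or under 0.33 FPKM in both epidermis libraries, with Aldh1a2 listed at 0 in both. Fibroblast markers were lower here (11 of 12 past 2-fold, median relative log2 fold -1.70), as were 6 of 10 basal keratinocyte markers (median -1.14). The count of 0 therefore depends on the median gene as the zero point. Set against the fibroblast list, the log2 fold was 2.35 for Rdh10, 2.30 for Aldh1a1, 1.5 for Crabp1, 1.39 for Sdr16c5 and 1.03 for Sdr16c6. Set against the keratinocyte lists pooled, it was 1.48 for Rdh10, 1.42 for Aldh1a1, 0.63 for Crabp1, 0.51 for Sdr16c5 and 0.16 for Sdr16c6. That pool mixes lists on opposite sides of the median gene: basal markers (median -1.14) and spinous and granular markers (median 0.38). Against the spinous and granular list alone every fold would lie below its relative log2 fold, so Crabp1, Sdr16c5 and Sdr16c6 would stay lower. Per FPKM of Col6a1, Crabp1 was at 0.744 in En1cre;Cyp26b1f/- epidermis and 0.216 in control epidermis, and per FPKM of Dcn at 1.71 in En1cre;Cyp26b1f/- epidermis and 0.796 in control epidermis. The part of cell makeup in these values was not tested.

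Levels in the controls differed between the dermis and epidermis libraries, although their values were scaled separately and each level is 1 library. Control dermis also held keratinocyte transcripts (Krt5 at 6264.94 FPKM, against 2634.28 FPKM in control epidermis). A level in it is therefore not that of dermal cells alone. In control epidermis Sdr16c5 was at 36.0 times its control dermis FPKM, and Sdr16c6 at 7.13 times. Crabp1 was at 8.22 times its epidermis FPKM in control dermis. Rbp4 was at 61.51 FPKM in control dermis and 0.33 FPKM in control epidermis, and Aldh1a3 at 3.05 FPKM in control dermis and 0.15 FPKM in control epidermis. Rdh10 was similar in control dermis (3.58 FPKM) and control epidermis (3.11 FPKM). The order in control epidermis was Sdr16c5, Sdr16c6, Crabp1, Rdh10 and Aldh1a1, and in control dermis Rbp4, Crabp1, Sdr16c5, Rdh10, Aldh1a3 and Sdr16c6. With 1 library a group, no neighbours in either order can be said to differ. The ratio of Sdr16c6 to Sdr16c5 was 0.0991 in En1cre;Cyp26b1f/- dermis and 0.565 in control dermis, and 0.0844 in En1cre;Cyp26b1f/- epidermis and 0.112 in control epidermis. Sdr16c6 was therefore below Sdr16c5 in every group but E16.5 Cyp26b1-/- skin.

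**Figure D4:**
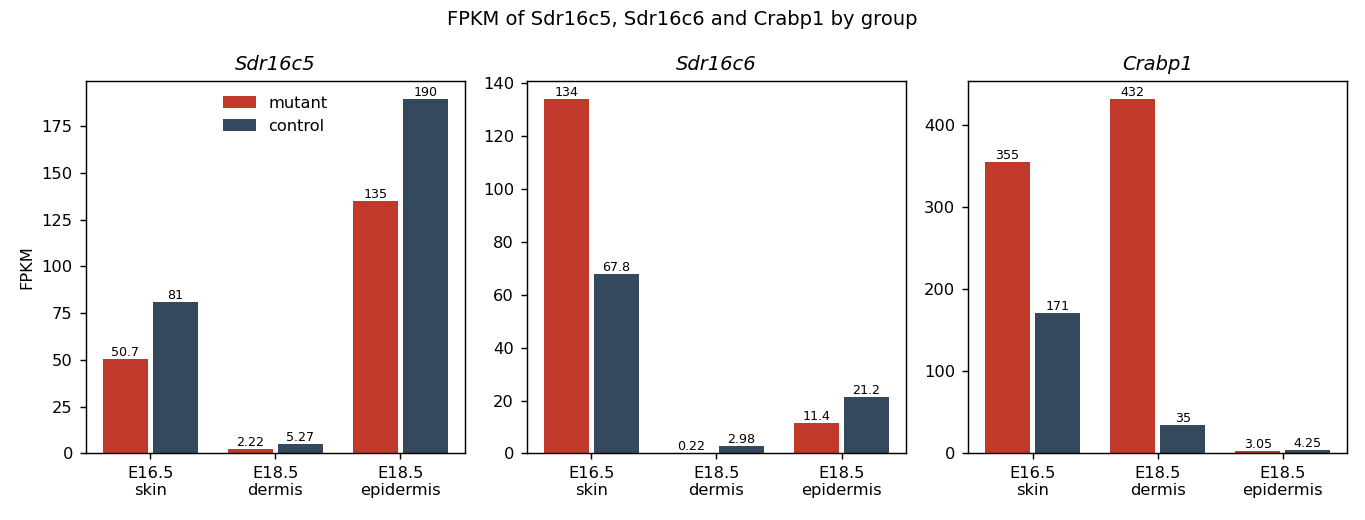
FPKM of Sdr16c5, Sdr16c6 and Crabp1 as bars from 0 in mutant and control samples of E16.5 skin, E18.5 dermis and E18.5 epidermis, with no error bars because no spread between libraries is available. In E16.5 skin Sdr16c6 is the taller of the pair in the mutant (134.12 FPKM) and the shorter in the control (67.77 FPKM, against 81.04 FPKM for Sdr16c5).

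Other genes of the pathway were read in 4 lists. Among the other retinol and retinaldehyde oxidoreductases, 5 of 22 tested rose and 6 fell at E16.5. Rdh9 (4.21 FPKM in Cyp26b1-/- skin and 10.62 FPKM in wild-type skin, relative log2 fold -1.59) and Rdh1 (2.73 FPKM in Cyp26b1-/- skin and 5.14 FPKM in wild-type skin, -1.15) fell, and both encode dehydrogenases of the retinol and steroid family. Dhrs3, which reduces retinaldehyde back to retinol, rose to 125.95 FPKM in Cyp26b1-/- skin, against 44.53 FPKM in wild-type skin (1.05). In E18.5 dermis 5 of 17 were past 2-fold higher and 1 lower. These include Dhrs7c, a muscle enzyme, at 14.94 FPKM in En1cre;Cyp26b1f/- dermis and 1.56 FPKM in control dermis (2.52), Rdh11, a retinaldehyde reductase, at 15.72 FPKM in En1cre;Cyp26b1f/- dermis and 4.25 FPKM in control dermis (1.55), and Adh5, an alcohol dehydrogenase, at 52.44 FPKM in En1cre;Cyp26b1f/- dermis and 18.30 FPKM in control dermis (1.35). In E18.5 epidermis 3 of 20 were past 2-fold higher and 0 lower. They were Aldh1a7 at 46.03 FPKM in En1cre;Cyp26b1f/- epidermis and 15.74 FPKM in control epidermis (1.67), Rdh1 at 36.59 FPKM in En1cre;Cyp26b1f/- epidermis and 16.43 FPKM in control epidermis (1.29), and Rdh16 at 7.13 FPKM in En1cre;Cyp26b1f/- epidermis and 3.36 FPKM in control epidermis (1.08).

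Among the other genes of retinoid binding and uptake, 7 of 13 tested rose and 2 fell at E16.5. Stra6, a membrane receptor for Rbp4 that is also expressed in the eye, rose to 44.75 FPKM in Cyp26b1-/- skin, against 1.47 FPKM in wild-type skin (relative log2 fold 3.78). Crabp2, which carries retinoic acid to its nuclear receptors, rose to 172.17 FPKM in Cyp26b1-/- skin, against 64.22 FPKM in wild-type skin (0.98). Rbp7, a cellular retinol-binding protein gene, fell to 7.64 FPKM in Cyp26b1-/- skin, against 17.66 FPKM in wild-type skin (-1.54). The retinal carriers Rbp3 (1.57 FPKM in Cyp26b1-/- skin and 0.01 FPKM in wild-type skin) and Rlbp1 (0.99 FPKM in Cyp26b1-/- skin and 0.19 FPKM in wild-type skin) are among those that rose, and their naming was chosen after their values were seen. In E18.5 dermis 5 of 11 were past 2-fold higher and 0 lower. Fabp5, which binds fatty acids and retinoic acid, was at 395.92 FPKM in En1cre;Cyp26b1f/- dermis and 81.73 FPKM in control dermis (2.14), Rbp7 at 11.48 FPKM in En1cre;Cyp26b1f/- dermis and 1.66 FPKM in control dermis (2.11), and Crabp2 at 33.60 FPKM in En1cre;Cyp26b1f/- dermis and 6.84 FPKM in control dermis (2.02). In E18.5 epidermis 1 of 8 was past 2-fold higher and 1 lower. The ratio of Crabp1 to Crabp2 was 12.9 in En1cre;Cyp26b1f/- dermis and 5.11 in control dermis, and 2.06 in Cyp26b1-/- skin and 2.66 in wild-type skin.

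Among the other genes of retinyl ester storage and hydrolysis and carotenoid cleavage, 1 of 9 tested rose and 2 fell at E16.5. The carboxylesterase gene Ces1d rose to 6.56 FPKM in Cyp26b1-/- skin, against 2.17 FPKM in wild-type skin (relative log2 fold 0.83). The lipase genes Pnpla2 (46.15 FPKM in Cyp26b1-/- skin and 59.36 FPKM in wild-type skin, -0.78) and Lipe (40.13 FPKM in Cyp26b1-/- skin and 44.84 FPKM in wild-type skin, -0.58) fell. Of 12 adipocyte markers, 8 were called lower and 0 higher at E16.5 (median -0.62), with a list sum of 1800 FPKM in Cyp26b1-/- skin and 1990 FPKM in wild-type skin. In E18.5 dermis 0 of 5 were past 2-fold higher and 3 lower. Pnpla2 was at 13.88 FPKM in En1cre;Cyp26b1f/- dermis and 66.91 FPKM in control dermis (-2.31), Lipe at 7.06 FPKM in En1cre;Cyp26b1f/- dermis and 28.21 FPKM in control dermis (-1.98), and the acyltransferase gene Dgat2 at 8.10 FPKM in En1cre;Cyp26b1f/- dermis and 34.08 FPKM in control dermis (-2.07). All 3 serve triglyceride metabolism in fat cells, and adipocyte markers moved with them: 7 of 11 were past 2-fold lower and 2 higher in dermis, with a list sum of 447 FPKM in En1cre;Cyp26b1f/- dermis and 809 FPKM in control dermis. Keratinocyte markers were lower in the same dermis library too, as given above. In control epidermis Dgat2 was at 500.32 FPKM, against 34.08 FPKM in control dermis, and Lipe at 57.69 FPKM, against 28.21 FPKM. Pnpla2 was at 32.45 FPKM in control epidermis and 66.91 FPKM in control dermis. The part of fat cells or of keratinocytes in these values was not tested. In E18.5 epidermis 0 of 7 were past 2-fold in either direction.

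Among genes of retinoic acid breakdown and response, 5 of 7 tested rose and 0 fell at E16.5. Rarb, a retinoic acid receptor gene induced by its own ligand, rose to 32.02 FPKM in Cyp26b1-/- skin, against 2.98 FPKM in wild-type skin (relative log2 fold 2.62). Tgm2, a transglutaminase gene that responds to retinoic acid, rose to 34.26 FPKM in Cyp26b1-/- skin, against 16.09 FPKM in wild-type skin (0.62). The receptor gene Rarg was called higher through 1 of its transcripts, at 104.51 FPKM summed in Cyp26b1-/- skin and 69.60 FPKM in wild-type skin (0.15). The others called higher were under 1 FPKM in both groups. Cyp26a1 was at 0.97 FPKM in Cyp26b1-/- skin and 0.18 FPKM in wild-type skin (0.31). Cyp26c1 was at 0.28 FPKM in Cyp26b1-/- skin and listed at 0 in wild-type skin (-0.07). Transcripts at 0 FPKM in 1 group kept the authors' call, which was not recentred. In E18.5 dermis 1 of 6 was past 2-fold higher and 3 lower. Tgm2 was at 40.27 FPKM in En1cre;Cyp26b1f/- dermis and 11.71 FPKM in control dermis (1.58), Rarg at 108.25 FPKM in En1cre;Cyp26b1f/- dermis and 229.49 FPKM in control dermis (-1.20), and Rara at 51.99 FPKM in En1cre;Cyp26b1f/- dermis and 105.91 FPKM in control dermis (-1.14). In E18.5 epidermis 2 of 4 were past 2-fold higher and 0 lower, namely Cyp26b1 (1.48) and the cytochrome P450 gene Cyp2s1, at 102.94 FPKM in En1cre;Cyp26b1f/- epidermis and 52.25 FPKM in control epidermis (1.14). Over the 4 lists together, 18 of 51 tested genes rose and 10 fell at E16.5, 11 of 39 were past 2-fold higher and 7 lower in dermis, and 6 of 39 were higher and 1 lower in epidermis, each beside the background shares given above.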

How the data were processed

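RNA-seq of mouse embryonic skin was analysed from 3 deposited tables. The submitters' processing notes list Cuffdiff 1.3.0, Cufflinks, TopHat 1.3.2 and Bowtie 0.12.7.0 and the mouse build mm9, without saying what each did. Strand handling is not stated there, so reads of overlapping genes cannot be told apart. Per the file headers, each row is a transcript with the FPKM of control and mutant. The FPKM deposited by the authors carry no depth, so no interval for counting error can be given. The log2 fold deposited by the authors is mutant over control with no pseudocount. The test statistic deposited by the authors is a score with the sign opposite to the fold, and the p-values and q-values deposited by the authors follow from it.

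FPKM were summed per symbol and compared with a pseudocount of 1 FPKM, relative to the median symbol of at least 1 FPKM. At E16.5 the SE is the deposited fold divided by the statistic. The recentred fold was given a two-sided normal p and adjusted over all tested transcripts. Transcripts at 0 FPKM in 1 group kept the authors' call, and a symbol counted when its called transcripts, 1 or more, all went in 1 direction. Symbols with a failed estimate were left out of list counts and medians. No count test was run, since the files hold no counts. The procedure was tested on simulated data. The noise there was drawn from the same SEs that the test uses, so it cannot show whether these SEs fit the real libraries.

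The genes and lists were chosen with earlier results of these data known. Named besides the 10 genes were, per pathway list and comparison, the 3 largest folds among called genes of at least 5 FPKM, and abundant or defining markers of lists that moved with a result. Aldh1a7, Rax, Alb, Cyp26a1 and Cyp26c1 at E16.5 were named after their values were seen. A gene that this rule names is not reported here. Promoters came from RefSeq and were located in the NCBIM37 genome with Python 3.11.15 and Biopython 1.88. Fits used numpy 2.4.6, pandas 2.3.3 and scipy 1.17.1. Alternatives changed the pseudocount, the centring, the filter, the threshold and the transcript used.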

Additional observations from a re-analysis of the deposited data

Results flagged for a closer look

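The Crabp1 values at E18.5 lay on opposite sides of the median gene in dermis and epidermis. Crabp1 was at 432.33 FPKM in En1cre;Cyp26b1f/- dermis and 34.95 FPKM in control dermis, but at 3.05 FPKM in En1cre;Cyp26b1f/- epidermis and 4.25 FPKM in control epidermis. Its relative log2 fold was 3.47 in dermis and -0.20 in epidermis, a difference of 3.66 on the log2 scale. With 1 library a group, this difference was not tested. The lower value in epidermis depends on the centre: set against the fibroblast list the log2 fold there was 1.5, and against the pooled keratinocyte lists 0.63. The spinous and granular list alone lay above the median gene in epidermis (median 0.38), so against it Crabp1 would stay lower.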

How the results depend on the processing

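At E16.5, 2 of the 10 genes were lower. With the authors' deposited q or an adjusted p below 0.01 in place of 0.05, 1 was (Sdr16c5). The count of 3 higher became 4 with the authors' q. In dermis the count of 2 past 2-fold lower was 1 at 3-fold, 1 with no median subtracted and 0 with a pseudocount of 5. In epidermis, 2 genes were higher and 1 lower past 1.5-fold, against 0 and 0 past 2-fold. Across 30 log2 folds, a pseudocount of 0.1 moved 5 and a pseudocount of 5 moved 1 by over 1.5 times. Subtracting the median of the fibroblast list moved 20, and that of the keratinocyte lists moved 19 and turned Sdr16c5 in dermis from -1.08 to 0.43. Smaller folds changed sign as well. With the keratinocyte lists these included Rbp4 in dermis (1.01), and Sdr16c5 (0.51), Sdr16c6 (0.16) and Crabp1 (0.63) in epidermis. With the fibroblast list they included Rdh10 in dermis (-0.83) and the same 3 genes in epidermis. In epidermis the keratinocyte centre pools basal markers (median -1.14) with spinous and granular markers (median 0.38). Against the spinous and granular markers alone these 3 genes would not change sign. Each list shifts all folds of a comparison by 1 amount, so either all folds of a comparison move or none do. Both centres were chosen after seeing the data. The cause was not tested, beyond the medians of these lists given above. The highest transcript alone and 2 other filters for the median moved none of the 30. These outcomes were nearly fixed beforehand. Only Rbp4 has more than 1 transcript, and each filter shifts all folds of a comparison by 1 small amount. Leaving out the subtraction moved none either, and this too was fixed beforehand. It shifts all folds of a comparison by 1 amount (0.43, 0.12 or -0.18), each under 1.5-fold. Some signs turned without it: at E16.5 the log2 fold became 0.35 for Rdh10, 0.25 for Aldh1a2 and 0.01 for Aldh1a3 and Dhrs9. That of Rbp4 at E16.5 became 0.85, against 0.42. No paired analysis was possible because both libraries of an E16.5 group are merged in a single column and each E18.5 group is 1 library. Leaving out a library was not possible for the same reason. Values near 0 FPKM rest on few reads, and FPKM does not say how few.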
